A study of Artemia parthenogenetic lineage with 6 samples.

Results

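The regions described here are ATAC-seq peaks that lie 30 to 100 kb upstream of the start site of their nearest gene in *Artemia* cysts, called distal upstream peaks below. They were chosen by position alone, as every peak that the deposited table places more than 30 kb and at most 100 kb upstream of the nearest transcription start site (TSS). The rule took 16729 of 112790 merged peaks (14.8%), which were nearest to 4857 of 12010 genes and lay on 1464 of 2100 contigs. Their distances ran from -99987 to -30002 bp, with a median of -53740 bp. Their median width was 324 bp (200 to 3711 bp), against 328 bp over all peaks. A single summit was listed for 54.5% of them, against 53.4% of all peaks. The genes they were assigned to lay on the plus strand for 49.7% of the peaks, and 2810 of the peaks fell inside the body of another listed gene.

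In animals, stretches of open chromatin far from genes often hold enhancers and other regulatory DNA, which transcription factors bind and which can act on a start site over long distances. The nearest gene is a convention, since such a stretch may act on another gene or on none. In embryonic diapause, *Artemia* development halts at the gastrula inside a resistant cyst, and embryonic diapause termination (EDT) lets metabolism and development resume. In ATAC-seq, the Tn5 transposase inserts adapters into open chromatin, so that the read count of a peak follows its accessibility.

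ArR_5h denotes wild-type *A. parthenogenetica* cysts 5 h after EDT and ArD_0h denotes untreated cysts of the same batch in diapause, with 3 biological replicates each. Whole cysts were used, so a change in the cell types of the cyst and a change within a cell type cannot be told apart, and p-values measure only the spread between these libraries. The treatment labels of ArR_5h replicates 1, 2 and 3 give 28, 29 and 30 °C, while the protocol of all of them gives 28 °C, so the temperature is not settled. The ArR_30min group and RNA-seq were not analysed here. The 6 libraries held 5239170 to 9366963 counts in peaks. Across the distal upstream peaks, Spearman correlations were 0.86 to 0.90 between ArR_5h libraries and 0.82 between ArD_0h replicates 2 and 3, whereas ArD_0h replicate 1 correlated with these at 0.63 and 0.62. ArD_0h replicate 1 therefore stood apart, and the main results are given with and without it. Shares by distance band, level, number of summits, gene body or gene list are given with it only. The same holds for shares at start-site peaks and other classes of position, apart from upstream peaks over 3 kb away. So are start-site differences of single genes.

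At 5 h after EDT, distal upstream peaks had lost accessibility more often than they had gained it. Counts were compared by the quasi-likelihood test of edgeR, with p adjusted by Benjamini-Hochberg over all tested peaks. Calls needed an adjusted p no larger than 0.05 together with a log2 difference beyond 1 or -1. Of 16607 distal upstream peaks that passed the filter on low counts, 3401 (20.5%) were lower in ArR_5h, where 15.2% of all tested peaks were lower. A further 2192 (13.2%) were higher in ArR_5h, where 14.5% of all tested peaks were higher. The other 122 distal upstream peaks had too few counts and were not tested. The median log2 difference (ArR_5h minus ArD_0h) was -0.22 over the distal upstream peaks and -0.07 over all tested peaks. All 3 ArR_5h libraries lay below all 3 ArD_0h libraries at 5031 distal upstream peaks (30.3%, against 25.7% of all tested peaks). They lay above them at 4009 (24.1%, against 26.4%). Without ArR_5h replicate 1 the calls came to 1557 higher and 1901 lower (9.33% and 11.4%, against 10.1% and 8.49% of all tested peaks), and without ArD_0h replicate 1 to 1703 and 2718 (10.2% and 16.3%, against 10.8% and 12.6%). With TMM scaling replaced by the totals behind the RPM values, higher peaks made up 53.6% of the called distal upstream peaks, not 39.2% (2858 higher and 2474 lower), and the median over all tested peaks was 0.09. The lower share remained above that of all tested peaks there too, at 14.9% against 10.6%.

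The share of lower peaks differed between classes of position. In the fit of all 6 libraries, 27.5% of start-site peaks, which overlap the TSS, were higher in ArR_5h and 0.982% lower. Shares at start-site peaks are not given without ArD_0h replicate 1, so how far they rest on it was not tested. Among upstream peaks 3 to 30 kb away, 13.4% were higher and 14.7% lower, and among those over 100 kb away 11.7% were higher and 24.6% lower. Without ArD_0h replicate 1 and with the trend of the log ratio on peak level removed, lower shares still increased with distance. They were 10.4% at 3 to 30 kb, 13.6% at the distal upstream peaks and 16.7% over 100 kb away. The higher shares were then 8.40%, 9.44% and 8.12%. In the fit of all 6 libraries, the lower share was 7.20% at peaks within 3 kb upstream and 6.86% at those inside the gene within 3 kb of the TSS. The 26297 tested peaks beyond the end of their gene came close to the distal upstream peaks, with 12.1% higher and 19.3% lower, against 13.2% and 20.5%. A raised share of lower peaks was thus not limited to upstream positions in this fit. Within the window, the lower share was 18.4% at 30 to 40 kb, 19.2% at 40 to 50 kb, 19.9% at 50 to 60 kb, 21.3% at 60 to 70 kb, 23.1% at 70 to 80 kb, 21.6% at 80 to 90 kb and 24.8% at 90 to 100 kb. The higher share stayed between 12.6% and 14.6% up to 90 kb and was lowest in the last band. The bands were compared without a test, since peaks of 1 gene are not independent. At the inner edge, peaks within 1000 bp inside were called higher in 13.9% and lower in 17.1% of cases, while outside, within 1000 bp, these shares were 10.9% and 18.6%. At the outer edge, 11% of the 118 peaks just inside were higher and 24.6% lower, against 12.2% and 26.7% of the 90 just outside.

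**Figure D1:**
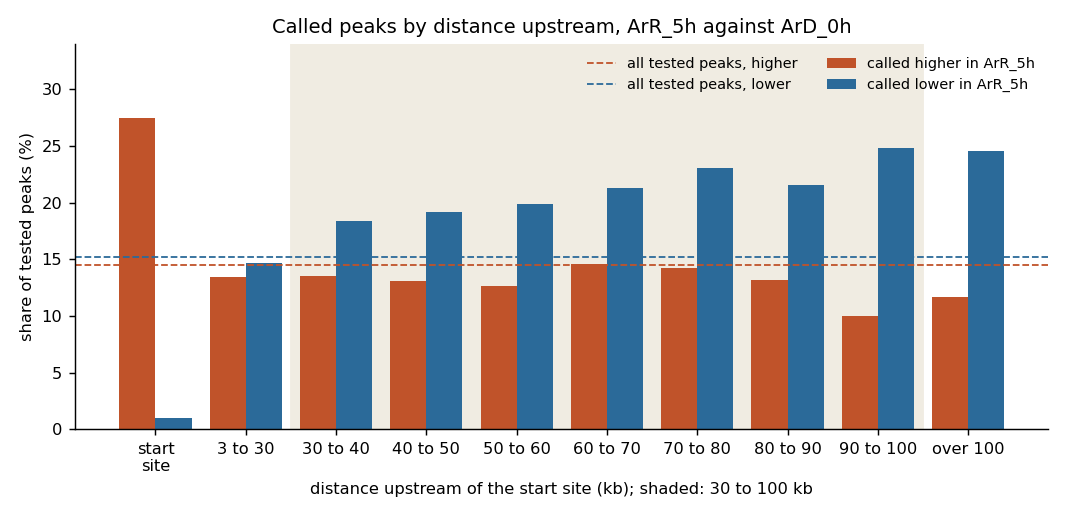
Share of tested peaks called higher or lower in ArR_5h against ArD_0h (y axis, %) by distance upstream of the TSS (x axis, kb), with the 30 to 100 kb window shaded and dashed lines at the shares over all tested peaks (14.5% and 15.2%). In the fit of all 6 libraries, the lower share was 18.4% at 30 to 40 kb and 24.8% at 90 to 100 kb, against 0.982% at start sites.

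In the fit of all 6 libraries, weak distal upstream peaks fell more often than they rose, while strong ones rose more often than they fell. All tested peaks were divided by mean level into 4 classes of equal size, with levels in CPM (counts brought to 1 common library size after TMM). In the lowest class, 5.40% of the distal upstream peaks were higher and 25.1% lower, and in the highest class, from 9.34 CPM, 23.0% were higher and 13.5% lower. Within each class the distal upstream peaks were lower more often than upstream peaks 3 to 30 kb away. That comparison was 25.1% against 19.9% in the lowest class and 13.5% against 8.48% in the highest. Peaks with 1 summit were higher in 6.38% and lower in 23.2% of cases, and those with 4 or more summits in 21.2% and 13.2%. The distal upstream peaks inside the body of another gene were 16.0% higher and 12.1% lower, and those outside all listed gene bodies 12.6% higher and 22.2% lower. The median level of the distal upstream peaks was 5.21 CPM, against 15.97 CPM at start-site peaks. Shares by level are not given without ArD_0h replicate 1, or with the trend of the log ratio on peak level removed. How far the pattern by level rests on that library was not tested.

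The distal upstream peaks lost ground to start-site peaks of the same genes in every ArR_5h library. For each library, the mean log2 CPM of a gene's distal upstream peaks was set against its own start-site peak and averaged over 1361 genes. This difference was -2.06, -1.92 and -1.74 in ArR_5h replicates 1, 2 and 3, against -0.15, -1.25 and -1.30 in those of ArD_0h. The ArR_5h libraries were all lower and the groups did not overlap, but ArD_0h replicate 1 lay far above the others of its group. The means were -1.91 ± 0.161 in ArR_5h and -0.90 ± 0.654 in ArD_0h (SD, n = 3 each). A 2-sided exact permutation test gave p = 0.1, which is the lowest value possible with 3 libraries in each group. The difference of -1.01 between these means shrank to -0.63 without ArD_0h replicate 1, to -0.67 once the trend of the log ratio on peak level was removed, and to -0.32 with both.

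Against other distances the shifts were smaller. Relative to all other peaks, the distal upstream peaks lay at -0.19, -0.16 and -0.14 on the log2 scale in ArR_5h replicates 1, 2 and 3, against 0.01, -0.05 and -0.05 in those of ArD_0h. Without ArD_0h replicate 1 and with the trend on level removed, the difference of -0.13 between the group means became -0.078. Relative to upstream peaks 3 to 30 kb away, the shift was -0.11, but -0.078 without ArD_0h replicate 1, -0.075 with the trend removed and -0.038 with both. Relative to upstream peaks over 100 kb away it was 0.11, with the opposite sign. The groups did not overlap in any of these comparisons. The distal upstream peaks held 14.4%, 14.5% and 15.1% of all counts in peaks in ArR_5h replicates 1, 2 and 3, against 15.3%, 15.5% and 15.5% in those of ArD_0h. Each of the 5 comparisons across libraries gave p = 0.1 in the 2-sided exact permutation test, and 0.1 after Benjamini-Hochberg adjustment over the 5, so none could pass a threshold of 0.05. Against the totals used for the RPM columns, these peaks instead held 2.13%, 2.12% and 2.07% in ArR_5h and 1.63%, 2.01% and 1.96% in ArD_0h. The fall in their share thus holds among reads in peaks, not among all reads counted in those totals.

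**Figure D2:**
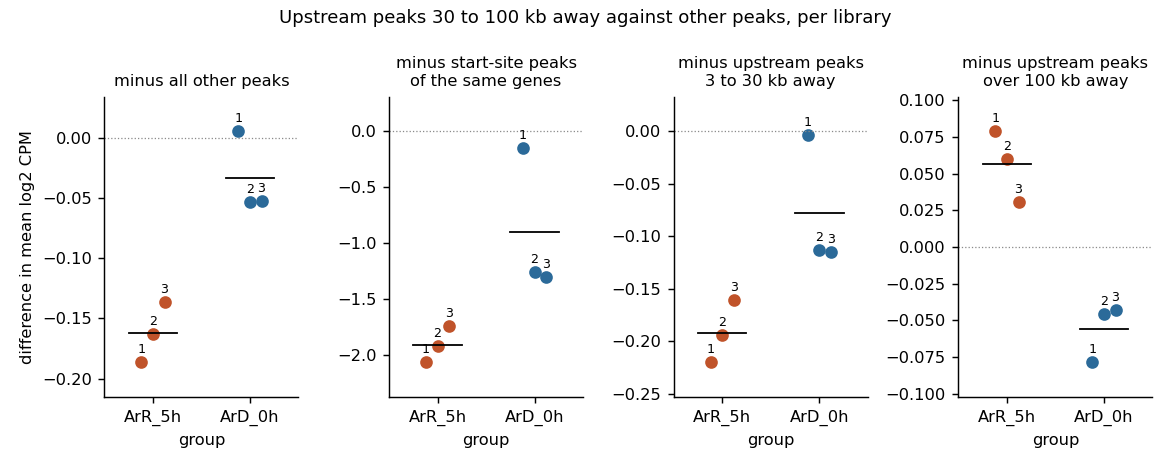
Mean log2 CPM of the upstream peaks 30 to 100 kb away minus that of 4 other sets of peaks (y axis, 1 scale per panel), with 1 numbered point per replicate and a line at the mean of each group. ArR_5h lay below ArD_0h in the first 3 panels and above it in the last, and ArD_0h replicate 1 lay far above replicates 2 and 3 against start-site peaks (-0.15, against -1.25 and -1.30).

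Most distal upstream peaks differed in sign from the start site of their gene, with only a weak relation between their log2 differences. Of the distal upstream peaks, 4442 belonged to the 1361 genes with a tested start-site peak, and 1994 of them (44.9%, exact binomial 95% interval 43.4% to 46.4%, which covers counting error only) had the same sign as that peak. The start-site peak was positive for 90.6% of them and the distal upstream peak for 41.8%. With shares this unequal, unrelated signs would also differ in most cases, so the 44.9% alone does not show opposition. Distal upstream peaks were positive in 42.7% of cases where the start site was positive, and in 33.7% where it was negative. The share with the same sign was 47.4% for peaks 3 to 30 kb upstream, 44.6% for peaks over 100 kb upstream, 72.1% for peaks inside the gene within 3 kb of the TSS, and 51.8% over all other peaks. Across the 4442 peaks, Pearson's r with the start-site difference was 0.07 and Spearman's rho was 0.06, as a description across peaks that share libraries and often genes. Between 41.4% and 46.2% of peaks had the same sign in each 10 kb band. The share with the same sign was 48.1% without ArD_0h replicate 1 and 50.7% once the trend on level was removed as well, so a majority of opposite signs was not seen under that setting.

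Where both places were called, the directions differed more often than they matched, with nearly all called start sites higher. Among 1449 distal upstream peaks of genes whose start site was called higher, 223 (15.4%) were higher and 339 (23.4%) lower. Among 2960 of genes whose start site was not called, 365 (12.3%) were higher and 634 (21.4%) lower. Of the 33 of genes whose start site was called lower, 4 were higher and 8 lower. Both the distal upstream peak and the start site were thus called in 574 cases. The direction was the same in 231 (40.2%) and opposite in 343. With nearly all called start sites higher, this lay close to the share of higher ones among all called distal upstream peaks (39.2%). Such cases had the same direction in 47.6% at peaks 3 to 30 kb upstream and 35.1% at those over 100 kb upstream. The share was 82.7% at peaks inside the gene beyond 3 kb of the TSS, and 69.6% over all other peaks. Without ArD_0h replicate 1 there were 97 cases of the same and 138 of the opposite direction, and with the totals behind the RPM values the order turned to 355 and 309. The higher share did climb with the start site, at 6.68% of peaks where the start-site log2 difference was below 0 and 20.3% where it was above 1.5, but the lower share in the same bins was 26.3% and 19.9%. Of 665 genes with 3 or more distal upstream peaks and a positive start site, all of these peaks were positive in 56, all were negative in 146 and they were mixed in 463. Genes with no tested start-site peak held the other 12165 distal upstream peaks, with 13.2% higher and 19.9% lower, against 13.3% and 22.1% for genes with one.

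**Figure D3:**
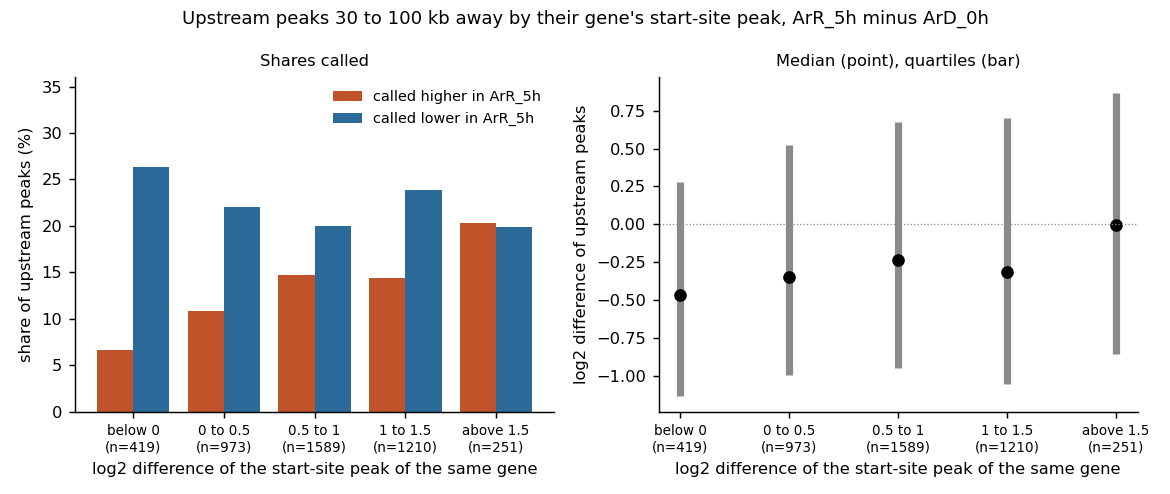
Upstream peaks 30 to 100 kb away grouped by the log2 difference (ArR_5h minus ArD_0h) of the start-site peak of the same gene (x axis, with the number of peaks), showing the share called higher or lower (left, %) and the median log2 difference with its quartiles (right). The median was -0.46 where the start site was below 0 and -0.01 where it was above 1.5.

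Opposite directions at the same gene were sharpest where a start site opened and a distal upstream peak closed. At evm.TU.ctg12.47_evm.TU.ctg12.46, the peak 33249 bp upstream (ctg12 from 3322009 to 3322255) held 0.562, 0.825 and 1.12 CPM in ArR_5h replicates 1, 2 and 3, against 6.81, 6.57 and 6.26 CPM in those of ArD_0h. All ArR_5h libraries were low and the groups lay far apart. The log2 difference here was -3.0 (standard error 0.438, adjusted p = 0.000102, edgeR), while the start-site peak had 1.47 (adjusted p = 0.00114, edgeR). At evm.TU.ctg408.27, the peak 50579 bp upstream held 0.225, 0.825 and 1.5 CPM in ArR_5h and 6.39, 5.65 and 5.31 CPM in ArD_0h, again with no overlap. It fell by 2.87 on the log2 scale (adjusted p = 0.000402, edgeR), and 5 of the 8 distal upstream peaks of that gene were lower, against a start-site log2 difference of 1.69. At evm.TU.ctg43.1, the peak 50765 bp upstream held 2.58, 1.18 and 1.87 CPM in ArR_5h and 4.45, 11 and 33.2 CPM in ArD_0h. The ArD_0h libraries were all higher but spread widely, and the log2 difference was -3.07 (adjusted p = 0.000208, edgeR), against 1.27 at the start site. That start site held 9.03 CPM in ArD_0h replicate 1, against 25.05 and 32.1 CPM in replicates 2 and 3. ArD_0h replicate 1 was also the lowest library at the start sites of evm.TU.ctg12.47_evm.TU.ctg12.46 and evm.TU.ctg408.27. Start-site differences without that library are not given here.

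Shared directions were found at other genes. At evm.TU.ctg69.40, the peak 33259 bp upstream held 39.8, 37.5 and 39.1 CPM in ArR_5h replicates 1, 2 and 3, against 9.45, 10.2 and 14.0 CPM in those of ArD_0h. All libraries of ArR_5h were higher, the log2 difference was 1.79 (adjusted p = 0.000215, edgeR), and the start-site peak had 2.08. At evm.TU.ctg508.19, annotated with protein binding, the peak 95819 bp upstream held 21.6, 21.2 and 14.6 CPM in ArR_5h and 3.20, 5.50 and 5.31 CPM in ArD_0h. It lay inside the body of another gene. The groups did not overlap, and the differences were 2.05 at this peak and 1.67 at the start site. The peak 34153 bp upstream of evm.TU.ctg815.14 also rose (log2 difference 3.07), with at most 0.949 CPM in an ArD_0h library, and its start site had 1.02. Start sites and distal upstream peaks that were both lower were few, and led by evm.TU.ctg1942.1 (-1.74 at the peak 36761 bp upstream and -1.41 at the start site), evm.TU.ctg53.23 (-1.65 and -1.49) and evm.TU.ctg3495.2 (-1.35 and -1.58). The peak of evm.TU.ctg3495.2 had 7.78 CPM in ArD_0h replicate 1 and 2.44 and 2.28 CPM in replicates 2 and 3, and a log2 difference of -0.52 (adjusted p = 0.472, edgeR) without that library. That of evm.TU.ctg53.23 had -1.22 (adjusted p = 0.081, edgeR) without ArD_0h replicate 1, and both calls were also lost without each ArR_5h library. The reverse pair, a higher distal upstream peak and a lower start site, was led by evm.TU.ctg1060.21 (1.23 and -1.07), evm.TU.ctg777.12 (1.10 and -1.13) and evm.TU.ctg319.15 (1.10 and -1.13). The first of these was 0.94 without ArD_0h replicate 1, the second 0.92 without ArR_5h replicate 1 and the third 0.96 without ArR_5h replicate 2, all under the limit of 1.

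The 10 largest gains among distal upstream peaks of at least median level whose groups did not overlap, with 1 peak per gene, had log2 differences of 2.28 to 2.99, and each kept its call without any single library. The largest lay 40469 bp upstream of evm.TU.ctg395.14_evm.TU.ctg395.12, on ctg395 from 599399 to 599683, and held 13.8, 13.4 and 11.8 CPM in ArR_5h replicates 1, 2 and 3, against 1.67, 1.53 and 1.71 CPM in those of ArD_0h. The libraries of each group were close together and the groups did not overlap. This gain was 2.99 on the log2 scale (standard error 0.320, adjusted p = 1.53e-05, edgeR), and 5 of the 6 distal upstream peaks of this gene were higher. At evm.TU.ctg260.20, the peak 66927 bp upstream held 20.9, 17.1 and 16.5 CPM in ArR_5h and 2.36, 3.82 and 2.47 CPM in ArD_0h, a log2 difference of 2.65. All 5 distal upstream peaks of that gene were higher. Stronger peaks rose by as much, such as the one 60788 bp upstream of evm.TU.ctg1427.4, with 85.4, 80.8 and 72.7 CPM in ArR_5h and 9.45, 21.5 and 12.7 CPM in ArD_0h (log2 difference 2.45).

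At evm.TU.ctg698.14, the peak 43365 bp upstream held 78.9, 71.9 and 64.0 CPM in ArR_5h and 3.61, 16.8 and 17.6 CPM in ArD_0h, with the lowest value in ArD_0h replicate 1. Its log2 difference was 2.51 (adjusted p = 0.000137, edgeR), while the start site of the gene had 0.74 and was not called. The peak of evm.TU.ctg712.7, a gene annotated with cell cycle terms, rose by 2.48 at 64218 bp upstream. The peaks of evm.TU.ctg664.10 (2.59, 42921 bp upstream), evm.TU.ctg366.14 (2.35, 84539 bp), evm.TU.ctg261.20 (2.31, 43242 bp) and evm.TU.ctg415.11 (2.28, 40999 bp) complete this group with evm.TU.ctg470.4, described further on. Of the 3 with a tested start-site peak, 1 start site was called higher, that of evm.TU.ctg366.14 at 1.32.

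The 10 largest falls, chosen in the same way, had log2 differences of -3.46 to -2.56. The peak 39392 bp upstream of evm.TU.ctg268.4, on ctg268 from 233678 to 234206, held 1.12, 2.00 and 2.25 CPM in ArR_5h replicates 1, 2 and 3, against 10.7, 12.7 and 11.8 CPM in those of ArD_0h. The groups lay far apart, the log2 difference was -2.74 (standard error 0.330, adjusted p = 3.36e-05, edgeR), and all 4 distal upstream peaks of the gene were lower. The peak 50230 bp upstream of evm.TU.ctg6.45 held 2.47, 4.01 and 3.93 CPM in ArR_5h and 15.6, 24.1 and 26.6 CPM in ArD_0h, and fell by 2.67 on the log2 scale. The start site of that gene had 0.08 and was not called. At evm.TU.ctg830.4, the peak 47111 bp upstream held 2.36, 3.65 and 1.5 CPM in ArR_5h and 11.9, 18.6 and 18.4 CPM in ArD_0h. It fell by 2.65 on the log2 scale with no overlap of the groups, while the start-site peak of the gene was higher, at 1.30.

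The steepest of these 10 falls rested on 1 library. The peak 53607 bp upstream of evm.TU.ctg277.25 held 2.14, 1.89 and 0.936 CPM in ArR_5h replicates 1, 2 and 3, against 2.92, 48.6 and 5.69 CPM in those of ArD_0h. ArD_0h replicate 2 stood far above the rest, and the log2 difference of -3.46 became -1.27 (adjusted p = 0.0767, edgeR) without it. The other falls of this group, at evm.TU.ctg43.1 (given above), evm.TU.ctg318.4 (-2.70, inside the body of another gene), evm.TU.ctg16.17 (-2.64), evm.TU.ctg413.6_evm.TU.ctg413.5 (-2.60), evm.TU.ctg99.1 (-2.57) and evm.TU.ctg250.18 (-2.56), kept their calls without any single library. Among the genes of these 10 peaks with a tested start site, evm.TU.ctg43.1, evm.TU.ctg830.4 and evm.TU.ctg413.6_evm.TU.ctg413.5 (1.10) had a higher one. ArD_0h replicate 1 was the lowest library at each of these start sites. At evm.TU.ctg413.6_evm.TU.ctg413.5 the start site held 4.725 CPM in that library, against 20.5 and 20.1 CPM in ArD_0h replicates 2 and 3. Whether these start sites are called without it is not given here.

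**Figure D4:**
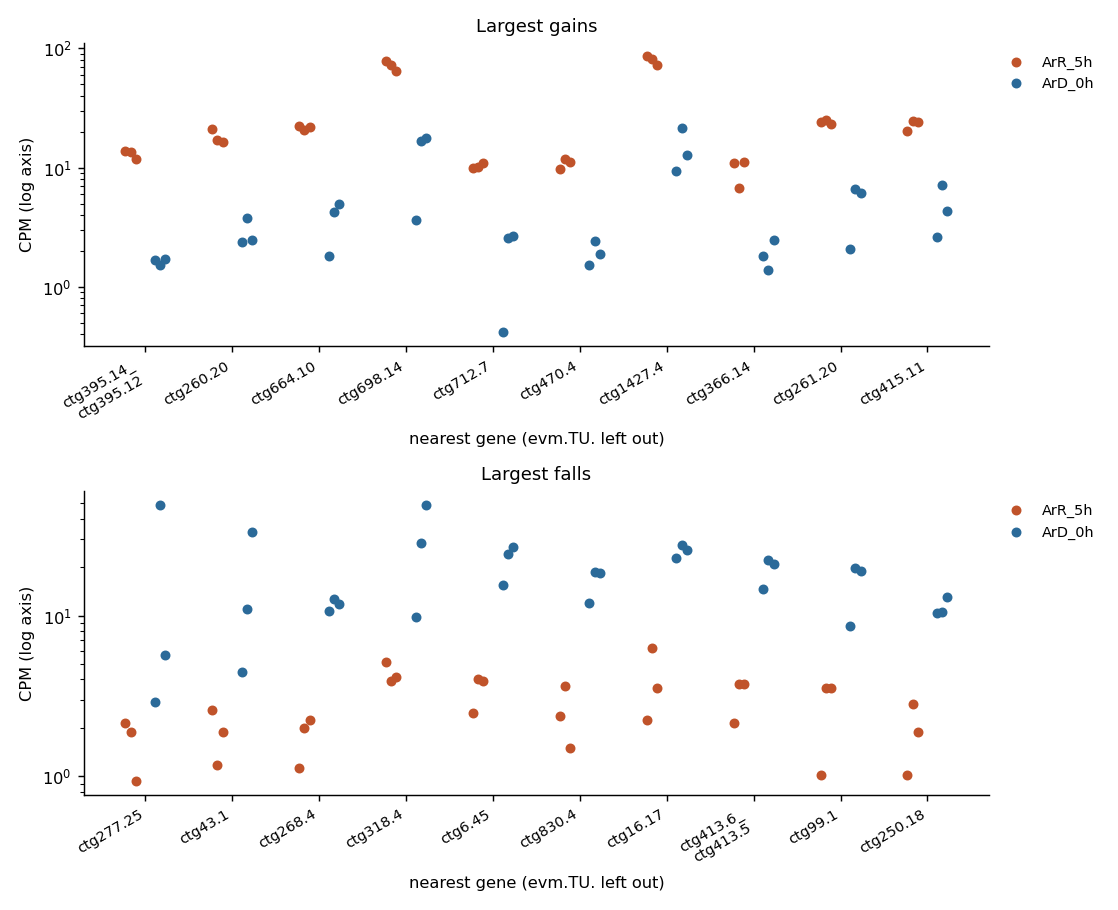
CPM (log axis) of the 10 largest gains (top) and the 10 largest falls (bottom) among distal upstream peaks of at least median level, 1 per gene, with 1 point per library and ArR_5h left of ArD_0h at each gene. The groups did not overlap at any of the 20 peaks, as the choice required, and ArD_0h replicate 2 alone reached 48.6 CPM at evm.TU.ctg277.25.

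Nearby distal upstream peaks of 1 gene often shared a direction, as adjacent peaks of any kind did. Of 4832 genes with tested ones (1 to 19 each, median 3), 1393 had a higher one, 1975 a lower one, 424 both and 1888 neither. Of the 657 genes with 3 or more called, these were all lower in 268, all higher in 152 and mixed in 237. Neighbours less than 0.5 kb apart had the same sign in 82.8% of 1822 pairs, and all 365 such pairs in which both were called had the same direction. At 10 to 30 kb apart, 59.3% had the same sign, and 75.5% of pairs in which both were called had the same direction. Adjacent peaks of any kind had the same sign in 81.1% of pairs below 0.5 kb and in 56.9% at 10 to 30 kb, and where both were called the direction was the same in 99.8% and 73.0%, close to the values of the distal upstream peaks. Over the 254 contigs with 20 or more, the median log2 difference ran from -1.32 to 0.85 and was positive on 104.

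At each of the 3 genes with the most lower ones, 11 distal upstream peaks fell. The deepest falls were those of evm.TU.ctg250.16, whose start site opened. Of its 19 distal upstream peaks 11 were lower, with log2 differences of -2.55 to -1.5, while its start-site peak had 1.36 (adjusted p = 0.00217, edgeR). The peak 39964 bp upstream, on ctg250 from 874432 to 875483, held 7.31, 8.02 and 11.1 CPM in ArR_5h replicates 1, 2 and 3, against 25.4, 39.4 and 35.7 CPM in those of ArD_0h. The groups lay far apart at this peak, and its log2 difference was -1.94. The 11 lower peaks stood in 2 runs, at 38000 and 39964 bp and from 68174 bp outward, on both sides of 8 uncalled peaks that had log2 differences of -0.94 to 0.12. The number called was 11 without ArD_0h replicate 1 and 11 without ArR_5h replicate 1.

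A similar count was found at evm.TU.ctg1680.1 (11 of 14 lower, -2.11 to -1.15) and at evm.TU.ctg1582.4 (11 of 13 lower, -1.67 to -1.06). The strongest peak of evm.TU.ctg1680.1, 63825 bp upstream, held 12.5, 14.4 and 17.2 CPM in ArR_5h and 40.6, 46.4 and 45.7 CPM in ArD_0h. It fell by 1.59 on the log2 scale (adjusted p = 0.000389, edgeR), with no overlap. The start site of evm.TU.ctg1582.4 had -0.07 and was not called, and of its peaks 6 and 7 were called without ArR_5h replicates 1 and 2 and 8 without ArD_0h replicate 1.

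Gains were most numerous at evm.TU.ctg1529.3, where 9 of 10 distal upstream peaks were higher, with log2 differences of 1.05 to 1.77. Its strongest called peak, 49950 bp upstream, held 31.7, 20.3 and 23.4 CPM in ArR_5h replicates 1, 2 and 3, against 4.03, 15.4 and 16.9 CPM in those of ArD_0h. All ArR_5h libraries were higher, but ArD_0h replicate 1 was far below the rest. The log2 difference of 1.07 (adjusted p = 0.0264, edgeR) became 0.64 without ArD_0h replicate 1, and the call was lost without each ArR_5h library as well (adjusted p = 0.0539 to 0.159, edgeR). The peak with the smallest p, 32504 bp upstream and picked after its values were seen, held 28.2, 27.1 and 26.8 CPM in ArR_5h and 5.84, 10.8 and 8.35 CPM in ArD_0h. Its log2 difference was 1.72 (adjusted p = 0.000343, edgeR), with no overlap of the groups. At evm.TU.ctg356.13, 8 of 10 were higher (1.04 to 1.34), and at evm.TU.ctg183.13, 8 of 11 (1.02 to 1.88), as many as at evm.TU.ctg470.4, described further on, where 14 were tested. Without ArD_0h replicate 1 the number called was 5 at evm.TU.ctg1529.3, 6 at evm.TU.ctg356.13 and 7 at evm.TU.ctg183.13. It was 6 at evm.TU.ctg1529.3 without ArR_5h replicate 2, and 5 at evm.TU.ctg356.13 without ArR_5h replicate 1 or 3. No start-site peak was tested at these 3 genes, and the sources used here give no description of them.

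**Figure D5:**
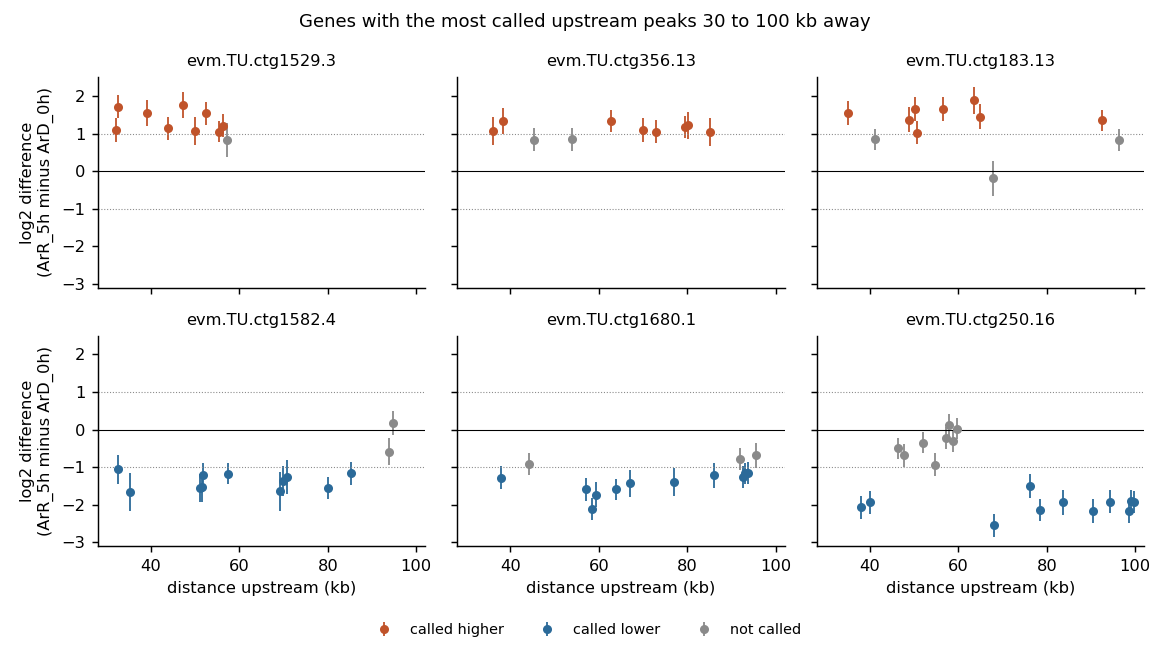
Log2 difference (ArR_5h minus ArD_0h, y axis, with standard error bars) of each tested upstream peak 30 to 100 kb away against its distance upstream (x axis, kb), for 3 genes with the most higher peaks (top, evm.TU.ctg470.4 with as many as 2 of them not drawn) and the 3 with the most lower peaks (bottom). At evm.TU.ctg250.16, 8 uncalled peaks between 46 and 60 kb separate 2 runs of lower peaks.

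Genes that the study links to signal transduction had more higher than lower distal upstream peaks. Among the 6 signal transduction genes, 5 had distal upstream peaks, of which 12 of 36 were higher (33.3%) and 1 was lower (2.78%), with a median log2 difference of 0.53. Over all tested peaks 14.5% were higher and 15.2% lower. The study took these genes from those it found up-regulated at 30 min after EDT and again between 30 min and 5 h, in comparisons that drew on the ArR_5h and ArD_0h libraries. Their rise was thus part of the choice, and these counts are not independent evidence of a direction. Of the 12 higher ones, 8 belonged to evm.TU.ctg470.4. The paper annotates it as an epidermal growth factor receptor gene, whose product signals through the ras-raf-MAPK pathway. It lies on the minus strand of ctg470 from 257031 to 350676, and 8 of its 14 distal upstream peaks were higher. The peak 56626 bp upstream held 9.67, 11.9 and 11.1 CPM in ArR_5h replicates 1, 2 and 3, against 1.53, 2.44 and 1.90 CPM in those of ArD_0h. The groups lay far apart, and the log2 difference of this peak was 2.47 (standard error 0.324, adjusted p = 5.78e-05, edgeR). The peaks 83329 bp and 55096 bp upstream rose by 1.97 and 1.72. The strongest, 37102 bp upstream, did not: it held 53.5, 55.5 and 45.3 CPM in ArR_5h and 13.5, 43.4 and 45.7 CPM in ArD_0h, where the groups overlapped (log2 difference 0.59). Without ArD_0h replicate 1, 5 of the 14 were called.

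The other signal transduction genes with distal upstream peaks gave 1 or 2 calls each. At evm.TU.ctg33.11, annotated as a GTPase-activating protein for RhoA, the strongest distal upstream peak (43760 bp) held 22.6, 19.3 and 21.7 CPM in ArR_5h and 3.75, 13.1 and 10.6 CPM in ArD_0h. Its log2 difference of 1.22 was 0.82 without ArD_0h replicate 1, the lowest library, and had an adjusted p of 0.0506 (edgeR) without ArR_5h replicate 1. At evm.TU.ctg275.1, linked to proton-selective channels, the log2 difference of 1.20 at 74972 bp became 0.93 without ArD_0h replicate 1, and 2 of its peaks were called without ArR_5h replicate 2. The peak at 74972 bp lay inside the body of another gene. At evm.TU.ctg658.6 both distal upstream peaks were higher, and the one 30883 bp upstream (1.45) had 0.90 (adjusted p = 0.201, edgeR) without ArR_5h replicate 1. Neither was called there, and 1 of the 2 was called without ArR_5h replicate 2, ArD_0h replicate 2 or ArD_0h replicate 3. The lower peak was that of evm.TU.ctg470.6, 50770 bp upstream, with 1.46, 1.53 and 2.81 CPM in ArR_5h and 11.1, 4.43 and 2.28 CPM in ArD_0h. The groups overlapped, and the log2 difference of -1.69 became -0.86 (adjusted p = 0.173, edgeR) without ArD_0h replicate 1. The start site of that gene was higher (1.31), and its strongest distal upstream peak, at 55621 bp, had 0.95 and was not called. Leaving out ArD_0h replicate 2 or 3 gave 2 calls at this gene.

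At the candidate G-protein-coupled receptor (GPCR) genes, receptors that span the membrane and pass signals to G proteins, distal upstream peaks were called in both directions at about the shares of all tested peaks. Of 15 candidates 11 had distal upstream peaks, and of their 38 peaks 6 were higher and 6 lower (15.8% each, against 14.5% and 15.2% of all tested peaks), with a median log2 difference of -0.21 (-0.22 over all distal upstream peaks). The candidates too were picked from genes that changed in comparisons with these libraries. At evm.TU.ctg71.25, the peak 45261 bp upstream (ctg71 from 2032229 to 2033243) held 27.1, 33.8 and 25.8 CPM in ArR_5h replicates 1, 2 and 3, against 3.61, 12.1 and 8.73 CPM in those of ArD_0h. The groups did not overlap, and this peak rose by 1.84 on the log2 scale (standard error 0.348, adjusted p = 0.000577, edgeR). Another of its 10 distal upstream peaks rose (1.38 at 36656 bp), while those at 78948 bp and 98588 bp fell by 1.09 and 1.10 on the log2 scale. These 4 calls became 2 without ArD_0h replicate 1 and 7 without ArD_0h replicate 3. At evm.TU.ctg288.3, the only one, 33223 bp upstream, was higher with 8.99, 11.6 and 10.7 CPM in ArR_5h and 3.47, 5.50 and 3.42 CPM in ArD_0h (1.32, with no overlap).

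Both distal upstream peaks of evm.TU.ctg195.9 were lower, and both lay inside the body of another gene. The one 41078 bp upstream held 1.35, 2.95 and 5.43 CPM in ArR_5h and 13.5, 8.40 and 6.83 CPM in ArD_0h, and fell by 1.65 on the log2 scale. The one 42436 bp upstream had -1.20, and -0.89 (adjusted p = 0.083, edgeR) without ArR_5h replicate 1. At evm.TU.ctg321.8, annotated as the Wnt receptor Frizzled-10, the peak 52883 bp upstream held 1.91, 2.71 and 4.12 CPM in ArR_5h and 7.23, 6.42 and 7.40 CPM in ArD_0h. Its log2 difference was -1.31 (adjusted p = 0.00527, edgeR), and -1.06 (adjusted p = 0.0551, edgeR) without ArR_5h replicate 1. Of its 3 distal upstream peaks 1 was lower, and 2 were called without ArD_0h replicate 3. The lower peak of evm.TU.ctg42.32 (-1.24, 37222 bp upstream) had an adjusted p of 0.0709 to 0.0896 without each ArR_5h library in turn and 0.173 without ArD_0h replicate 2 in edgeR's test.

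The other receptors had few calls. An opsin, evm.TU.ctg179.30, had 6 distal upstream peaks, of which those at 44396 bp (1.51) and 56539 bp (1.37) were higher. Its strongest, at 47776 bp, held 12.6, 14.2 and 9.55 CPM in ArR_5h and 10.6, 7.64 and 9.87 CPM in ArD_0h, and was not called. RYamide receptors respond to neuropeptides in *Drosophila melanogaster*, and the gene so named here, evm.TU.ctg441.12, had a single one, at 75786 bp, with 4.27, 3.65 and 3.0 CPM in ArR_5h and 3.20, 4.12 and 4.74 CPM in ArD_0h. The groups overlapped there (log2 difference -0.12). The adhesion receptor gene evm.TU.ctg485.29 likewise had 1, at 38379 bp, with a difference of 0.72 that was not called. The strongest of the 8 of evm.TU.ctg1716.2 had -0.43 and the single one of evm.TU.ctg25.48 had -0.86, and neither was called. At evm.TU.ctg41.1, 1 of 4 was higher (1.44) and the strongest had 0.99, just under the limit. There 3 of the 4 were called without ArR_5h replicate 3, ArD_0h replicate 1 or ArD_0h replicate 3.

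Genes of the study's integrated gene list for 30 min against diapause had more higher than lower distal upstream peaks as a whole, though not under every term. The list as used here holds 567 genes, chosen in part on the ArD_0h libraries, so a direction among them is not independent evidence. It is part of the paper's list for that comparison, and the paper's separate list for 30 min to 5 h was not used. Of 1337 tested distal upstream peaks of its genes, 335 (25.1%) were higher and 154 (11.5%) lower, against 14.5% and 15.2% of all tested peaks, with a median log2 difference of 0.32. Genes with protein kinase activity had 30 of 81 higher and 4 lower, and those with cell surface receptor signaling 12 of 30 higher and 1 lower. Both of these lists include evm.TU.ctg470.4. Wnt signaling genes had 4 of 13 higher, among them the peak 53207 bp upstream of evm.TU.ctg777.6, with 9.78, 8.72 and 10.7 CPM in ArR_5h and 1.67, 4.89 and 4.18 CPM in ArD_0h (1.45). The single Notch signaling gene of the list had no distal upstream peak.

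Genes with transcription factor activity lay near the shares of all distal upstream peaks. Of their 59 peaks, 9 were higher (15.3%, against 13.2%) and 12 lower (20.3%, against 20.5%). Their median was 0.02, against -0.22 over all distal upstream peaks. The peak 86517 bp upstream of evm.TU.ctg7.20 held 11.7, 13.3 and 11.4 CPM in ArR_5h and 3.47, 2.75 and 4.18 CPM in ArD_0h, with no overlap and a log2 difference of 1.82. In the other direction, the peak 44830 bp upstream of evm.TU.ctg366.28 had -2.28, with 4 of its 8 distal upstream peaks lower and a start-site difference of 1.13. Without ArD_0h replicate 2, it had -1.76 with an adjusted p of 0.051 (edgeR). The start site of that gene held 2.92 CPM in ArD_0h replicate 1, against 16.5 and 16.1 CPM in replicates 2 and 3. Of the 25 peaks of genes with GPCR signaling, 9 were higher and 3 lower, of the 38 of ion transport genes 11 and 3, of the 47 of proteolysis genes 10 and 5, of the 23 of cytoskeletal protein binding genes 6 and 3, of the 20 of cell adhesion genes 5 and 1 and of the 17 of cell cycle genes 2 and 1. Over the whole integrated list, 25.1% were higher and 11.5% lower. Ion transport (28.9% higher), cytoskeletal protein binding (26.1%), cell adhesion and proteolysis genes (21.3%) lay near that higher share. GPCR signaling genes lay above it and cell cycle genes below it (11.8%). The lower share was slightly above 11.5% at GPCR signaling and cytoskeletal protein binding genes and below it at the rest. The largest gains of these lists included evm.TU.ctg110.15 (ion transport, 1.68), evm.TU.ctg77.33 (proteolysis, 1.66), evm.TU.ctg136.31 (cytoskeletal protein binding, 1.96) and evm.TU.ctg143.23 (cell adhesion, 1.62). The falls included evm.TU.ctg326.2 (protein kinase activity, -2.03) and evm.TU.ctg36.12 (ion transport and cell adhesion, -1.42). The call was lost at evm.TU.ctg104.14 (proteolysis, -2.13) without ArR_5h replicate 2 (adjusted p = 0.0594, edgeR) and at evm.TU.ctg674.9 (cytoskeletal protein binding, -1.5) without ArD_0h replicate 2 (0.0836). At evm.TU.ctg1040.3 (cell cycle, -1.05) the groups overlapped, and the log2 difference was between -0.98 and -0.75 without ArR_5h replicate 1 or 2 or ArD_0h replicate 1 or 2.

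The distal upstream peaks of highest level were not called. They lay far above the median of 5.21 CPM, and their counts enter the share of counts given above. Whether such levels reflect accessibility was not tested. The 5 of highest level comprised 4 upstream of evm.TU.ctg479.19 and 1 upstream of evm.TU.ctg1300.2. The strongest, 47279 bp upstream of evm.TU.ctg479.19, held 9221, 9477 and 13200 CPM in ArR_5h replicates 1, 2 and 3, against 4922, 10290 and 10300 CPM in those of ArD_0h. The groups overlapped, and the log2 difference was 0.32 (adjusted p = 0.117, edgeR). Once the trend on level was removed, it was called higher at 1.17. The other 4 had differences of 0.11 to 0.42 and overlapping groups.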

How the data were processed

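ATAC-seq counts of 3 ArR_5h and 3 ArD_0h libraries were analysed. The labels name BWA and MACS2. The paper's methods, written for its own libraries, give trimming, BWA mapping to the *A. franciscana* assembly, removal of mitochondrial and duplicate reads, MACS2 peaks and ChIPseeker annotation. A Tn5 shift and the read counter are not given in the sources used here. The deposited counts are raw whole numbers of reads per merged peak. The totals behind the deposited RPM columns were worked out here. Each RPM value was taken as the count, raised by 1, over a single total of its library. The distance to the TSS is that of the table, and coordinates follow its contigs. No genome was used here, so no sequence is shown.

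The quasi-likelihood test of edgeR 4.0.16 (R 4.3.3) was run on all peaks after TMM normalization and removal of low counts, with a prior count of 2 and no replicate block. P-values were adjusted by Benjamini-Hochberg over 112211 tested peaks. Standard errors are the log2 difference over the square root of F. DESeq2 1.42.0, no filter, removal of the trend on level with limma 3.58.1 (fast cyclic loess), the totals behind the RPM values, other thresholds and memberships, and leaving out each library were alternatives. Exact permutation tests and intervals used Python 3.11.15 with scipy 1.17.1. The edgeR step was tested on simulated data.

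The peaks, gene lists and tests were chosen with earlier results of these data known. Named peaks were, by rule, the 10 largest called differences per direction (at least median level, groups without overlap, 1 per gene), the strongest peak of each gene ID in the paper, the 3 genes with the largest summed differences per combination of called peak and called start site, the 3 genes with the most calls per direction, the 5 peaks of highest level, and the largest call per list and direction. For named genes, other peaks of the same gene were singled out after their values were seen. Gene roles come from the paper or the terms of its supplementary gene list, of which the first 567 rows were used. Counts and medians of lists carry no test.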

Additional observations from a re-analysis of the deposited data

How the results depend on the processing

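Of 72 named peaks, 59 were called, and 43 of all 72 kept direction and side of the threshold under all 12 alternatives. Each comparison between libraries kept its direction under the alternatives run for it, except that the share of counts in the distal upstream peaks was 0.24 percentage points higher in ArR_5h as a share of the totals behind the RPM values. The alternative that joined removal of the trend on level with leaving out ArD_0h replicate 1 was chosen after the data were seen, and gave 2258 lower peaks. Leaving out 1 library gave 1557 to 2585 higher and 1901 to 3469 lower peaks. The share with the sign of the start site was 46.9% with the trend on level removed, 47.7% with the totals behind the RPM values, 48.2% with the strongest peak within 1000 bp of the TSS, 50.7% with the added alternative, and 44.4% to 48.1% with 1 library left out. Cases in which both were called numbered 139 in the same and 150 in the opposite direction with the trend removed, and 45 and 58 with the added alternative. Those of the same direction numbered 355 with the RPM totals, 405 with the strongest peak within 1000 bp and 147 at 40 to 90 kb only. With 1 library left out they numbered 97 to 352 in the same and 138 to 436 in the opposite direction. Fewer libraries or peaks enter by construction where a library or band was left out, and otherwise the cause was not tested.

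Signs turned at evm.TU.ctg441.12 (0.029 with the trend removed, 0.037 with the RPM totals, and -0.27 to 0.035 with 1 library left out, the positive value without ArD_0h replicate 3), at the peak 37102 bp upstream of evm.TU.ctg470.4 (-0.019 with the added alternative), at evm.TU.ctg3495.2 (0.083 with the same) and at evm.TU.ctg1300.2 (-0.049 to 0.27 with 1 library left out, the negative value without ArR_5h replicate 3). The labels do not say that replicate numbers pair the libraries. Deviations from the group mean of libraries with the same number correlated at -0.207, 0.00392 and -0.145 across peaks. These values cannot decide whether libraries were paired, since the deviations within a group of 3 are tied to each other. A fit with the replicate block called 2229 higher and 3061 lower peaks. With 3 libraries per group no exact permutation p can fall below 0.1, and peaks of low level carry the largest errors.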
